A study of Mus musculus with 9 samples.

Results

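The 10 genes that encode the vascular endothelial growth factor (VEGF) and angiopoietin ligands and their receptors were followed in right ventricular myocardium of young mice. They were the 10 rows named Vegfa, Vegfb, Vegfc, Pgf, Angpt1, Angpt2, Kdr, Flt1, Tek and Tie1, out of 54532 rows in the deposited gene table, and comprise 6 ligands and 4 receptors. The 9 libraries were bulk RNA sequencing of wild-type C57BL/6 mice, 3 in each of 3 groups. CsA mice had the fistula operation, which overloads the heart with blood volume, and injections of cyclosporin A, a drug that blocks the phosphatase calcineurin through cyclophilins. VO mice had the fistula operation without the drug, and Sham mice the control operation. The labels give postnatal day 7 as the stage for all groups, the age at operation, and name no vehicle injection for VO or Sham, and they do not state the dose, when tissue was taken or whether every library came from its own mouse. The p-values therefore rest on sample-to-sample spread alone, part of which may be technical.

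VEGF ligands act on receptor tyrosine kinases of endothelial cells. VEGF-A, encoded by Vegfa, signals mainly through Kdr (VEGF receptor 2) and also binds Flt1 (VEGF receptor 1) tightly, so that Flt1 limits how much ligand reaches Kdr. VEGF-B and placental growth factor (Pgf) bind Flt1 and not Kdr. VEGF-C acts mainly on Flt4, the receptor of lymphatic vessels. Angiopoietin 1 activates Tek (also called Tie2) and keeps vessels quiet, angiopoietin 2 can oppose it, and Tie1 is a related receptor without a high-affinity ligand that forms complexes with Tek. In the heart, cardiomyocytes are a major source of VEGF-A and VEGF-B, and the receptors are found mainly on endothelium.

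Between VO and Sham, transcripts of the co-receptor Tie1 fell in VO, by 0.84 on the log2 scale, and were the 1 of 10 members past the test, which 4.76% of all genes passed. Tie1 passed in 7 of 20 alternative settings. Flt1 and the ligand Vegfb lay below every Sham library in every VO library without passing. With Tie1 that made 3 of 10 members without overlap, near the 33.1% over all genes. Transcripts of Kdr, Tek, Angpt1, Angpt2, Vegfc and Pgf did not pass, nor did those of Vegfa, which was highest in 2 VO libraries. In CsA libraries Tie1 and Flt1 lay above every VO library, but no member passed the test in CsA against VO or CsA against Sham.

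Promoter windows are shown for the members on which these results turn, Tie1, Flt1 and Vegfb, and for their partners Tek, Kdr and Vegfa, whose libraries overlapped between VO and Sham. RefSeq windows in GRCm38.p6, from 250 bases before to 50 bases after a gene's start, were matched by symbol for 8 of the 10 members. Tie1 was read from chr4:118489800-118490099 (minus strand) and Tek from chr4:94739039-94739338 (plus strand). The start used for Tie1 lies downstream of that in the deposited gene table, 118490061. Most of its window therefore falls within the deposited gene. Flt1 was read from chr5:147725962-147726261 and Kdr from chr5:75978406-75978705, both on the minus strand. Vegfb was read from chr19:6987602-6987901 and Vegfa, at the more upstream of its starts in the table, from chr17:46032328-46032627, both on the minus strand. Capitals mark, on either strand, ACGTG and GCGTG, core letters of hypoxia response elements, CCGGAA and CAGGAA, cores bound by ETS factors, GGAAAA, a core bound by NFAT, and TATAAA, the TATA box. GGAAAA can overlap both ETS cores.
Tie1: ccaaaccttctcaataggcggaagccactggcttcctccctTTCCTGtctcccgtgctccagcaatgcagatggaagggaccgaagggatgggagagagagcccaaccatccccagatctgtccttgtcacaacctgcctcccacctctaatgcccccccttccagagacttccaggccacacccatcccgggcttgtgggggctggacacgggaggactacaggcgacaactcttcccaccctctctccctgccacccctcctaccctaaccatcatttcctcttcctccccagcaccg
Tek: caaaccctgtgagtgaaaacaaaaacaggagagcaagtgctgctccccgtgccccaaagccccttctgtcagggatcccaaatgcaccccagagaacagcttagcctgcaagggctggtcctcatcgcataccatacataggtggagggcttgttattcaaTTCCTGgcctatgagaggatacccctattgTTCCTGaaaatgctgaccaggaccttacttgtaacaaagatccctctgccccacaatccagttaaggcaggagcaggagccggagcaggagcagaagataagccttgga
Flt1: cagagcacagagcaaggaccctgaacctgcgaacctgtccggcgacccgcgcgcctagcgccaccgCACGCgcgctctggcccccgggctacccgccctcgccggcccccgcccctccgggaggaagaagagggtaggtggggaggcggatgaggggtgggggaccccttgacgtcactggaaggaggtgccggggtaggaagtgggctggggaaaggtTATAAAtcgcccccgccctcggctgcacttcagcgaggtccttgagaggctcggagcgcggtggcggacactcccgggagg
Kdr: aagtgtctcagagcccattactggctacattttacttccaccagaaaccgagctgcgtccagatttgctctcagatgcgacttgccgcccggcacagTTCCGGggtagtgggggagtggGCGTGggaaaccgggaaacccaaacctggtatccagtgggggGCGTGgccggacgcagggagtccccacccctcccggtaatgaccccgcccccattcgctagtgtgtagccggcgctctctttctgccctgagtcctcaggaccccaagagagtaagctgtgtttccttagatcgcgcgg
Vegfb: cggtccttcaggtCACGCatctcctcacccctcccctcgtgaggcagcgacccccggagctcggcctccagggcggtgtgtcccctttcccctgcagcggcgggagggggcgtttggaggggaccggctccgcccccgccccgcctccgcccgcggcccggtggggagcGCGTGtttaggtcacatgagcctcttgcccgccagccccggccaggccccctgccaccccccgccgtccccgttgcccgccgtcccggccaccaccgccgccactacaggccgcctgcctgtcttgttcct
Vegfa: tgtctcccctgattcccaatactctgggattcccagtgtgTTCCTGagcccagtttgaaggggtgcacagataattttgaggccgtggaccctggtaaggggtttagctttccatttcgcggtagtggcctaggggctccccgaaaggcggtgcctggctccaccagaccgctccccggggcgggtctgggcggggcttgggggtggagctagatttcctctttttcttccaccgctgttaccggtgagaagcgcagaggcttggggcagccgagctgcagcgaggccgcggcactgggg
The Tie1 window held 1 CAGGAA and the Tek window 2. Flt1 held 1 GCGTG and 1 TATAAA, Kdr held 2 GCGTG and 1 CCGGAA, Vegfb held 2 GCGTG and Vegfa held 1 CAGGAA. Neither ACGTG nor GGAAAA was in these windows. The other Vegfa window in the table, chr17:46025114-46025413 on the minus strand, held 1 ACGTG and 1 GCGTG and is not printed. Of 32851 windows of the same length, 30.6% held CAGGAA, 32.4% GCGTG, 14.9% CCGGAA, 19.6% ACGTG, 23.4% GGAAAA and 13.6% TATAAA. The GC content of the windows was 60.3% for Tie1, 52% for Tek, 70.7% for Flt1, 60.7% for Kdr, 75.3% for Vegfb and 62% for Vegfa, against a median of 52.7% over all windows.

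Some libraries stood apart. Levels are in FPKM (fragments scaled by gene length and by library size), and the libraries held 12046288 to 15986747 fragments. VO 3 had 11.01% of its fragments from mitochondrially encoded genes, against 22.2% to 26.3% in the others, and the hemoglobin gene Hbb-bs at 1304 FPKM, against 391.1 to 593.2 FPKM. Myl7, an atrial myosin light chain, reached 68.3 FPKM in CsA 3, 235 FPKM in Sham 1 and 269.7 FPKM in Sham 3, while the remaining 6 libraries held 0.959 to 13.2 FPKM. Sham 2 was the 1 library with Y-linked Ddx3y (18.6 FPKM, against 0 elsewhere) and with Xist near 0. Ventricular cardiomyocyte markers summed to 14435 to 15040 FPKM in CsA, 11039 to 16203 FPKM in VO and 14126 to 16784 FPKM in Sham, and all 10 were detected.

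By the mean over the 9 libraries Vegfb was the most abundant of the 10 transcripts per length, at 92.1 FPKM, although its group means ran from 65.7 FPKM in VO to 114.7 FPKM in Sham. In VO 1 Vegfa, at 51.8 FPKM, was above Vegfb, at 43.6 FPKM. Kdr followed at 37.9 FPKM, Vegfa at 34.8 FPKM, Tie1 at 33.3 FPKM and Tek at 29.2 FPKM, and these neighbours overlapped in range across libraries. Angpt1 (9.32 FPKM), Flt1 (8.71 FPKM) and Vegfc (5.49 FPKM) formed a lower set that also overlapped. Angpt2 at 1.43 FPKM and Pgf at 0.894 FPKM were lowest, on 50 to 100 and 19 to 59 fragments per library, so counting error alone is large for both. All 10 members averaged 0.5 FPKM or more, the filter for testing, as did 13477 genes of the table.

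**Figure D1:**
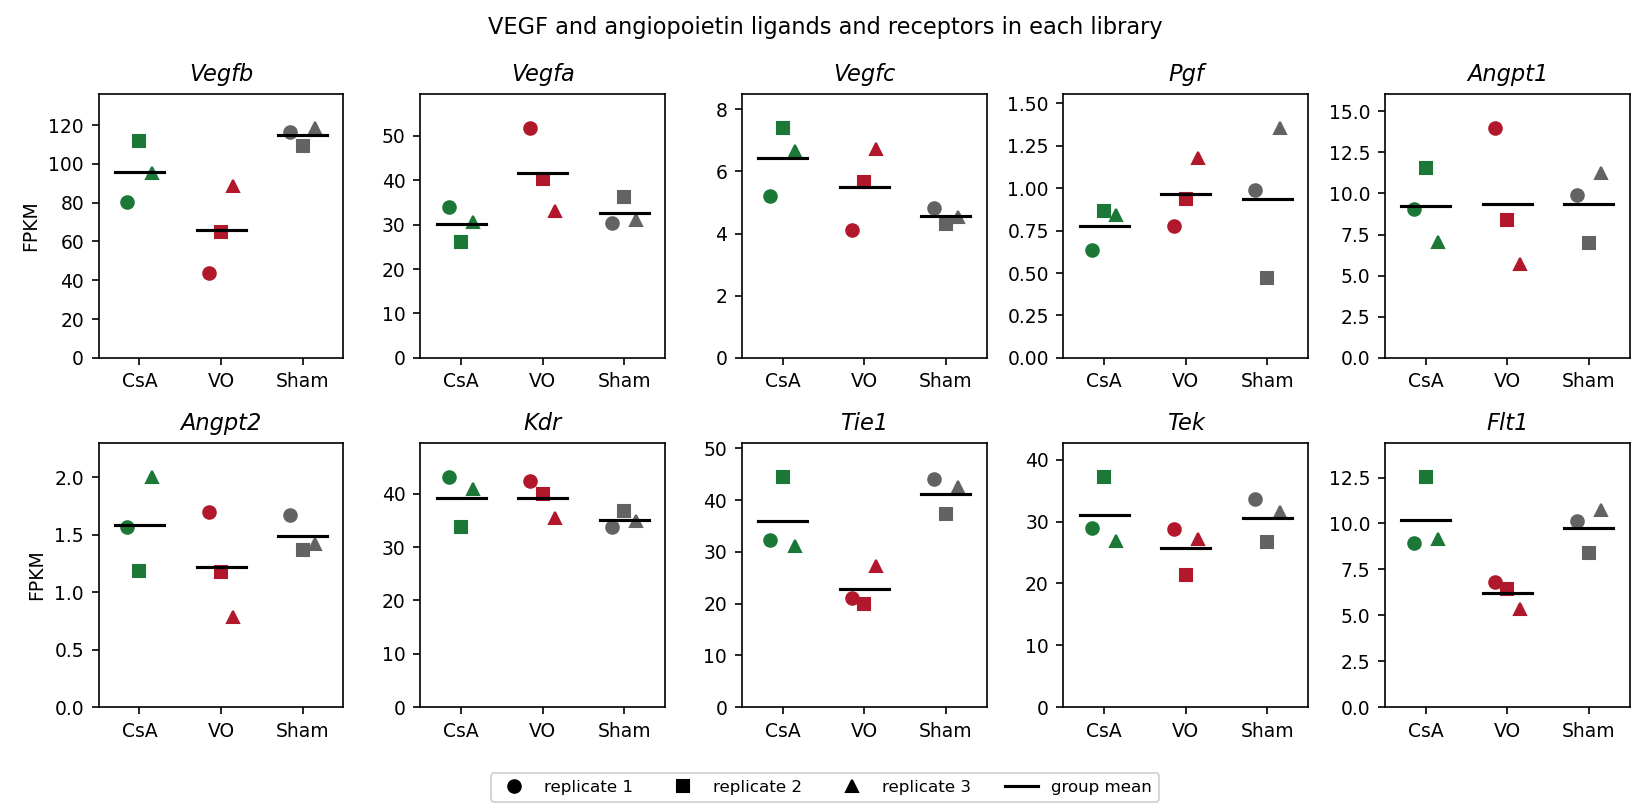
FPKM (y axis, from 0) of the 10 members in each library, by group, with CsA left, VO in the middle and Sham right; points are libraries, their shapes the replicate number, and lines the group means. Tie1 and Flt1 in VO lie below all CsA and all Sham libraries, and Vegfb in VO lies below all Sham libraries. By highest over lowest library Kdr varies least, from 33.7 to 43.1 FPKM.

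Among the receptors, Tie1 (ENSMUSG00000033191, chromosome 4, 118471191 to 118490061 in GRCm38, minus strand) showed the lowest VO values relative to Sham. It stood at 32.3, 44.4 and 31.2 FPKM in CsA 1 to 3, at 21.1, 19.96 and 27.2 FPKM in VO 1 to 3 and at 44.0, 37.2 and 42.5 FPKM in Sham 1 to 3. All VO libraries were below all libraries of the other groups, and the CsA and Sham ranges overlapped. The log2 fold change in VO against Sham was -0.84 ± 0.186 (SE, limma on log2(FPKM + 1), adjusted p = 0.0408). In that comparison 4.76% of all genes passed the test, 2.04% higher and 2.72% lower in VO, and the libraries did not overlap for 33.1% of genes. The Tie1 call was lost without any 1 of CsA 1, CsA 3, VO 1, VO 2, Sham 1, Sham 2 or Sham 3 (limma adjusted p from 0.0607 to 0.187), and held without CsA 2 (0.0398) or VO 3 (0.0317).

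Tie1 was a GC-rich transcript, at 57.6%, in a comparison where fold change moved with GC content. The median log2 fold change in VO against Sham was 0.35 for the decile of tested genes lowest in GC and -0.44 for the highest decile. In the decile that holds Tie1 it was -0.28. With the GC trend of every library removed, Tie1 was at -0.52 ± 0.154 and 0 genes passed in limma, with 2843 having an unadjusted p under 0.05. Without the 3 libraries high in Myl7 Tie1 was at -0.70 ± 0.344. That leaves 1 Sham library, Sham 2, the library with Ddx3y and with Xist near 0. The part of GC content and of atrial tissue in the Tie1 difference was otherwise not tested.

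Flt1 (ENSMUSG00000029648, chromosome 5, 147561604 to 147726011, minus strand), the receptor of VEGF-A, VEGF-B and Pgf, was likewise lowest in VO. It stood at 8.92, 12.5 and 9.17 FPKM in CsA 1 to 3, at 6.83, 6.41 and 5.32 FPKM in VO 1 to 3 and at 10.1, 8.38 and 10.7 FPKM in Sham 1 to 3. The highest VO library was below the lowest of either other group. In VO against Sham the log2 fold change was -0.58 ± 0.169 (limma adjusted p = 0.0676), which did not pass. At a GC content of 50.5% it moved little with the GC correction, to -0.55 ± 0.168. Gene-level values do not separate the membrane-bound from the soluble Flt1 form.

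Kdr, the main signalling receptor for VEGF-A, was the steadiest member, with its highest library 1.28 times its lowest. It stood at 43.1, 33.8 and 40.8 FPKM in CsA, at 42.5, 40.0 and 35.4 FPKM in VO and at 33.7, 36.8 and 34.8 FPKM in Sham. The groups overlapped, and the log2 fold change in VO against Sham was 0.16 with a 95% interval of -0.18 to 0.49 (limma adjusted p = 0.525). Tek, the angiopoietin receptor, stood at 29.0, 37.2 and 26.9 FPKM in CsA, at 28.8, 21.4 and 27.3 FPKM in VO and at 33.6, 26.7 and 31.6 FPKM in Sham. Its libraries also overlapped, with a log2 fold change of -0.24 and a 95% interval of -0.65 to 0.16 in VO against Sham (limma adjusted p = 0.399). The Kdr interval holds the change of Vegfa (0.33) but not those of Tie1, Flt1 or Vegfb. The Tek interval holds that of Flt1 (-0.58) but not those of Tie1 or Vegfb. Neither receptor was shown to stay level.

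The 4 receptors together summed to 108 to 128 FPKM in CsA, 87.7 to 99.1 FPKM in VO and 109 to 121 FPKM in Sham. Of that sum Flt1 made up 7.87% to 9.79% in CsA, 5.59% to 7.31% in VO and 7.68% to 8.97% in Sham. Kdr made up 26.4% to 38.0% in CsA, 37.2% to 45.5% in VO and 27.7% to 33.7% in Sham, so the VO libraries held relatively more Kdr than Sham.

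Ratios within a library set the partners directly against each other. The log2 ratio of Tie1 to Tek was 0.15, 0.26 and 0.21 in the CsA libraries, -0.45, -0.10 and -0.005 in the VO libraries and 0.39, 0.48 and 0.43 in the Sham libraries. The 3 groups did not overlap, with VO lowest and CsA between. The difference was -0.62 in VO against Sham, 0.39 in CsA against VO and -0.23 in CsA against Sham, each with an exact two-sided permutation p = 0.1, the smallest that 3 against 3 libraries can give (adjusted p = 0.188 over 15 ratio comparisons). Tie1 and Tek differ in GC content, 57.6% and 47.1%. After the GC correction their log2 fold changes were closer in all 3 comparisons. In VO against Sham they were -0.52 for Tie1 and -0.35 for Tek, where the fit without it gave -0.84 and -0.24. In CsA against VO they were 0.45 and 0.32, against 0.63 and 0.25 without it. In CsA against Sham they were -0.07 and -0.03, against -0.21 and 0.01 without it. The part of GC content in the order of the groups was not tested.

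The log2 ratio of Flt1 to Kdr was -2.27, -1.43 and -2.15 in the CsA libraries, -2.64, -2.64 and -2.73 in the VO libraries and -1.74, -2.13 and -1.70 in the Sham libraries. VO lay below all libraries of both other groups, and CsA and Sham overlapped. The mean difference was -0.81 in VO against Sham and 0.72 in CsA against VO (exact permutation p = 0.1 for each), and -0.10 in CsA against Sham (exact permutation p = 0.8).

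**Figure D2:**
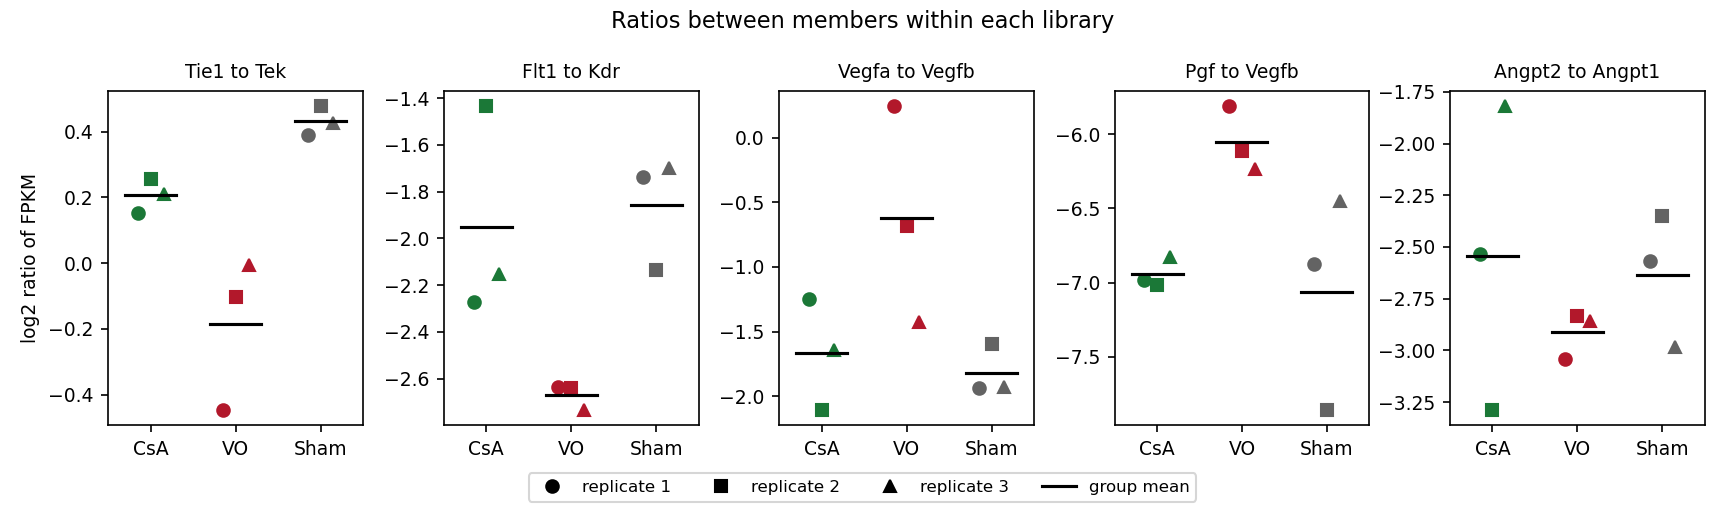
Log2 ratio of FPKM between 2 members (y axis, its own range in each panel) in each library, with CsA left, VO in the middle and Sham right; points are libraries, shapes the replicate number and lines the group means. Tie1 to Tek and Flt1 to Kdr are lowest in the 3 VO libraries, and Pgf to Vegfb is highest there.

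Receptor levels were also set against 20 other endothelial marker genes of the same library, since fewer endothelial cells and less receptor RNA per cell cannot be told apart in bulk tissue. Those markers summed to 688.6 to 1028 FPKM in CsA, 497 to 730.7 FPKM in VO and 699 to 948.9 FPKM in Sham. Relative to their mean log2 level, Tie1 stood at 0.52, 0.67 and 0.39 in CsA, at 0.33, 0.07 and 0.13 in VO and at 0.72, 0.71 and 0.66 in Sham. Tie1 thus lay lower in VO than in either other group within this scale too, by 0.52 against Sham and 0.35 against CsA (exact permutation p = 0.1 for each, adjusted p = 0.667 over 15). No GC correction was made on this scale. The fold changes of the 20 markers went both ways in VO against Sham, with 7 above 0 and 13 below. Flt1 relative to the markers overlapped between VO and Sham, with a difference of -0.31 (exact permutation p = 0.4) that was -0.04 without VO 3 and -0.51 without VO 1. The 4 receptors together differed by -0.06 (exact permutation p = 0.7). Kdr differed by 0.51 in the other direction, with overlapping libraries (exact permutation p = 0.2), and by 0.33 without VO 1.

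Of the VEGF ligands, Vegfb (ENSMUSG00000024962, chromosome 19, 6982473 to 6987651, minus strand) differed most between VO and Sham. It stood at 80.3, 112 and 95.2 FPKM in CsA 1 to 3, at 43.6, 64.7 and 88.8 FPKM in VO 1 to 3 and at 117, 109 and 119 FPKM in Sham 1 to 3. The VO libraries spread widely and all lay below Sham, while CsA overlapped both. The log2 fold change in VO against Sham was -0.85 ± 0.249 (limma adjusted p = 0.068), which did not pass. It passed without VO 3, at -1.10 ± 0.195 (limma adjusted p = 0.0319), and after rescaling without mitochondrially encoded genes, at -0.93 ± 0.22 (limma adjusted p = 0.0428). Vegfb is the most GC-rich member, at 62.6%, in the GC decile whose median was -0.44, and stood at -0.31 ± 0.175 after the GC correction.

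Vegfa (ENSMUSG00000023951, chromosome 17, 46016993 to 46032369, minus strand) stood at 33.9, 26.0 and 30.5 FPKM in CsA 1 to 3, at 51.8, 40.3 and 33.0 FPKM in VO 1 to 3 and at 30.5, 36.1 and 31.1 FPKM in Sham 1 to 3. VO 1 and VO 2 were above every other library, and VO 3 fell within the Sham range. The log2 fold change in VO against Sham was 0.33 ± 0.19 (limma adjusted p = 0.278), and leaving out 1 library gave 0.16 without VO 1 (limma adjusted p = 0.568) to 0.48 without VO 3 (limma adjusted p = 0.0727). The GC correction left it at 0.37 ± 0.201. Gene-level values do not separate the VEGF-A isoforms.

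The make-up of the VEGF ligands was taken from these values. Vegfb made up 66.9%, 76.6% and 71.5% of summed ligand FPKM (Vegfa, Vegfb, Vegfc and Pgf) in the CsA libraries, 43.5%, 58.0% and 68.4% in the VO libraries and 76.3%, 72.7% and 76.2% in the Sham libraries. The VO shares were all below Sham, and VO 3 overlapped CsA. The log2 ratio of Vegfa to Vegfb averaged -1.66 ± 0.431 in CsA, -0.62 ± 0.839 in VO and -1.82 ± 0.195 in Sham (SD, n = 3 each). It was higher in VO than in Sham by 1.2, with no overlap (exact permutation p = 0.1), and lower in CsA than in VO by 1.04 on average, with overlap (exact permutation p = 0.2). Without VO 1 these differences were 0.76 and -0.61, and without VO 3 they were 1.6 and -1.45. After the GC correction the log2 fold changes in VO against Sham were 0.37 for Vegfa and -0.31 for Vegfb.

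Vegfc, the lymphatic growth factor, stood at 5.2, 7.39 and 6.66 FPKM in CsA 1 to 3, at 4.13, 5.67 and 6.73 FPKM in VO and at 4.81, 4.32 and 4.54 FPKM in Sham. Every CsA library lay above every Sham library, and VO spanned both. The log2 fold change in CsA against Sham was 0.41 ± 0.179 at an unadjusted limma p of 0.0474, with an adjusted p = 1. Pgf stood at 0.635, 0.863 and 0.840 FPKM in CsA, at 0.778, 0.935 and 1.18 FPKM in VO and at 0.992, 0.471 and 1.36 FPKM in Sham, with overlap throughout. Its log2 fold change in VO against Sham was 0.04, and 0.31 ± 0.161 after the GC correction (limma adjusted p = 0.298). The log2 ratio of Pgf to Vegfb, both ligands of Flt1, averaged -6.94 ± 0.102 in CsA, -6.05 ± 0.22 in VO and -7.06 ± 0.721 in Sham (SD, n = 3 each). VO lay above both other groups (exact permutation p = 0.1 for each), on few Pgf fragments.

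The angiopoietins overlapped between groups in all 3 comparisons. Angpt1, the activating ligand of Tek, stood at 9.07, 11.6 and 7.05 FPKM in CsA 1 to 3, at 14.0, 8.39 and 5.71 FPKM in VO 1 to 3 and at 9.92, 6.96 and 11.2 FPKM in Sham 1 to 3. VO held both its highest and its lowest library. The log2 fold change in VO against Sham was -0.06 with a 95% interval of -0.72 to 0.61 (limma adjusted p = 0.918). After the GC correction Angpt1, the member lowest in GC at 39.3%, stood at -0.41 ± 0.255 (limma adjusted p = 0.367). Angpt2, made by endothelium, stood at 1.57, 1.18 and 2.002 FPKM in CsA, at 1.70, 1.18 and 0.786 FPKM in VO and at 1.67, 1.36 and 1.42 FPKM in Sham, with overlapping groups (log2 -0.18, 95% interval -0.59 to 0.23, limma adjusted p = 0.546 in VO against Sham). The log2 ratio of Angpt2 to Angpt1 averaged -2.55 ± 0.736 in CsA, -2.91 ± 0.112 in VO and -2.63 ± 0.32 in Sham (SD, n = 3 each). The 3 comparisons of that ratio overlapped, with exact permutation p from 0.3 to 0.9.

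Counted over all members, VO against Sham had 4 of 10 log2 fold changes above 0 and 6 below, with a median of -0.12, against 0.003 over all tested genes. For the receptors alone 3 of 4 were below 0, with a median of -0.41, and for the ligands 3 of 6, with a median of -0.01. The libraries of VO and Sham did not overlap for 3 of 10 members, all lower in VO, where 17% of all genes were lower and 16.2% higher without overlap. The 3 were Tie1, Flt1 and Vegfb, which also had an unadjusted limma p under 0.05, as did 29.3% of all genes.

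**Figure D3:**
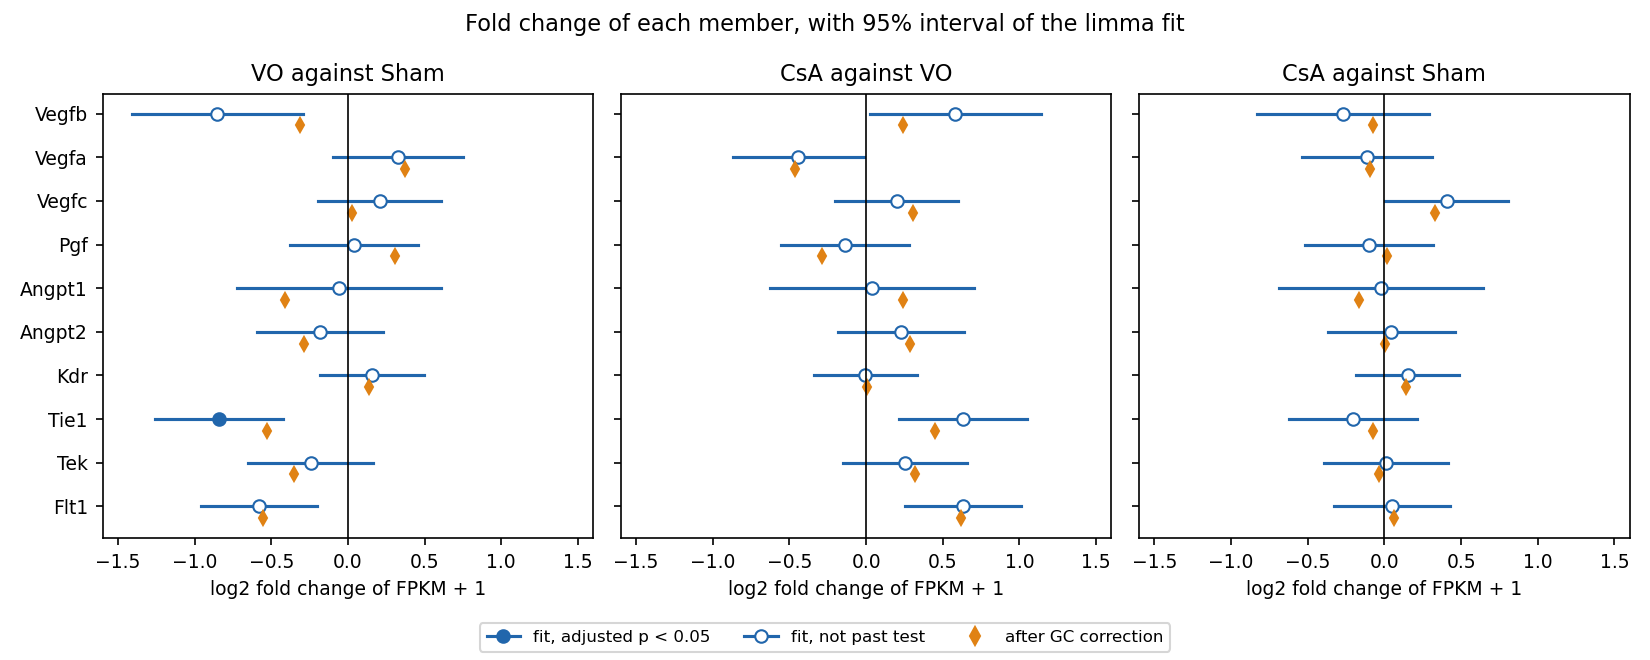
Log2 fold change of FPKM + 1 (x axis) for each member in the 3 comparisons, with circles for the limma estimate, lines for its 95% interval and orange diamonds for the estimate after the GC correction. The filled circle, Tie1 in VO against Sham at -0.84, is the 1 estimate past the adjusted threshold, and the GC correction brings Vegfb from -0.85 to -0.31.

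The comparison of CsA with VO asks which levels differed with the drug once both groups had the fistula. It shares the VO libraries with the comparison above, so opposite signs in the 2 are not independent of each other. No member passed, and limma passed 0 of 13477 genes (0%), with 2219 (16.5%) below an unadjusted p of 0.05, and voom on the recovered fragments also called 0. Tie1 stood at 0.63 ± 0.186 on the log2 scale (limma adjusted p = 0.218) and Flt1 0.63 ± 0.169 (limma adjusted p = 0.211), both with every CsA library above every VO library, as for 10.9% of all genes, with 10.3% lower without overlap and 21.2% in all. Vegfb stood at 0.58 ± 0.249 (limma adjusted p = 0.289) and Vegfa at -0.44 ± 0.19 (limma adjusted p = 0.292), with overlapping libraries. These 4 members had an unadjusted p under 0.05. After the GC correction Tie1 stood at 0.45, Flt1 at 0.62, Vegfb at 0.24 and Vegfa at -0.46.

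The remaining members were nearer 0 in CsA against VO. Tek had a log2 fold change of 0.25, Angpt2 0.23, Vegfc 0.20, Angpt1 0.04, Kdr -0.005 and Pgf -0.14, with limma adjusted p from 0.492 to 0.991. The median over the 10 members was 0.21, against -0.001 over all tested genes. Within the CsA group, CsA 2 held the highest value of Tie1, Tek, Flt1, Vegfb, Vegfc, Pgf and Angpt1 and the lowest of Kdr, Vegfa and Angpt2. Without CsA 2 the log2 fold change of Tie1 was 0.47 and that of Flt1 0.49.

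CsA against Sham had 5 of 10 members above 0 and 5 below, with a median of -0.005, against 0.001 over all tested genes. Neither limma nor voom passed any of 13477 genes (0 each, 0%), with 200 (1.48%) below an unadjusted p of 0.05 in limma. Vegfc was the 1 member without overlap, higher in CsA, as were 4.8% of all genes, with 4.94% lower and 9.74% in all. The folds of the others lay between -0.27 for Vegfb and 0.15 for Kdr, and the groups overlapped. The 95% interval was -0.63 to 0.21 for Tie1 and -0.19 to 0.49 for Kdr, so differences within those ranges remained possible with 3 libraries a group.

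Genes that act with the members were listed separately. Of 6 other ligands, receptors and co-receptors, Angpt4 was below the filter and 0 of the other 5 passed in VO against Sham (2 above 0, 3 below, median -0.05). Ptprb, the endothelial phosphatase that removes phosphate from Tek, stood at 21.3, 32.4 and 20.04 FPKM in CsA, at 19.4, 14.6 and 9.50 FPKM in VO and at 24.9, 17.6 and 25.7 FPKM in Sham. VO overlapped Sham through VO 1, and the log2 fold change in VO against Sham was -0.65 ± 0.276 (limma adjusted p = 0.155). The VEGF-C receptor Flt4 stood at -0.39 ± 0.187, the lymphatic ligand Vegfd at -0.05 ± 0.141 and the co-receptor Nrp2 at 0.15 ± 0.236.

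Among 23 genes of receptor signalling and endothelial response, 1 rose and 2 fell in VO against Sham (6 above 0, 17 below, median -0.29). Over all genes 2.04% passed higher and 2.72% lower in that comparison, and 33.1% had no overlap. Klf4, a flow-responsive transcription factor that is also expressed outside endothelium, stood at 14.0, 17.3 and 15.4 FPKM in CsA 1 to 3, at 7.33, 7.68 and 5.48 FPKM in VO 1 to 3 and at 19.7, 17.1 and 20.1 FPKM in Sham 1 to 3. VO was below every other library, and Klf4 fell by 1.36 on the log2 scale (SE 0.158, limma adjusted p = 0.0347). Nos3, the endothelial nitric oxide synthase that VEGF signalling activates, stood at 5.68, 8.26 and 7.15 FPKM in CsA, at 3.51, 5.18 and 2.95 FPKM in VO and at 9.34, 7.33 and 8.46 FPKM in Sham. It fell in VO by 0.96 on the log2 scale (SE 0.197, limma adjusted p = 0.0403), with no overlap with Sham.

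Esm1, an endothelial secreted protein induced by VEGF-A, moved in the other direction. It stood at 1.08, 0.578 and 1.34 FPKM in CsA, at 1.77, 1.52 and 1.88 FPKM in VO and at 0.327, 0.823 and 0.626 FPKM in Sham, so that VO was above every other library. Esm1 rose by 0.78 ± 0.185 on the log2 scale in VO against Sham (limma adjusted p = 0.0456). Its levels were low, with Sham 1 under the 0.5 FPKM that the filter asks of the mean. Over all genes 2.04% passed higher in VO, and 16.2% lay above Sham without overlap. Klf2, the flow-responsive factor related to Klf4, stood at -1.31 ± 0.33 on the log2 scale (limma adjusted p = 0.0511), which did not pass. In CsA against VO the 4 genes stood at 1.09 for Klf4, 1.00 for Klf2, 0.73 for Nos3 and -0.46 for Esm1 (limma adjusted p from 0.204 to 0.268), and 0 of the 23 genes passed.

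Of 20 oxygen-sensing and hypoxia target genes, 19 were tested. In VO against Sham, where 4.76% of all genes passed, 1 rose (8 above 0, 11 below, median -0.17). That gene was Hif1a, the oxygen-regulated subunit of the factor that drives Vegfa transcription, with 34.3, 25.3 and 29.3 FPKM in CsA 1 to 3, 51.0, 40.0 and 39.9 FPKM in VO 1 to 3 and 21.1, 28.0 and 24.5 FPKM in Sham 1 to 3. VO was above all other libraries, and the log2 fold change was 0.80 ± 0.179 (limma adjusted p = 0.0408). Of all genes, 16.2% had every VO library above every Sham library. The hypoxia target Ankrd37 stood at 0.60 ± 0.212 and Vhl, which marks HIF for degradation, at 0.46 ± 0.158, while the oxygen sensor Egln1 stood at -0.53 ± 0.198. These 3 did not pass (limma adjusted p from 0.0989 to 0.114). After the GC correction Klf4 was at -1.16, Nos3 at -0.62, Esm1 at 0.55 and Hif1a at 0.50, and none of the 4 passed. Over the 20 settings Klf4 passed in 9, Nos3 in 8, Esm1 in 5 and Hif1a in 7, with the same sign in each, and Esm1 ranged from 0.55 to 1.62. With 1 library left out Klf4 passed in 4 of 9 fits, Nos3 and Hif1a in 3 and Esm1 in 2. All 4 calls were lost without CsA 1, CsA 3, VO 1, Sham 1 or Sham 3.

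**Figure D4:**
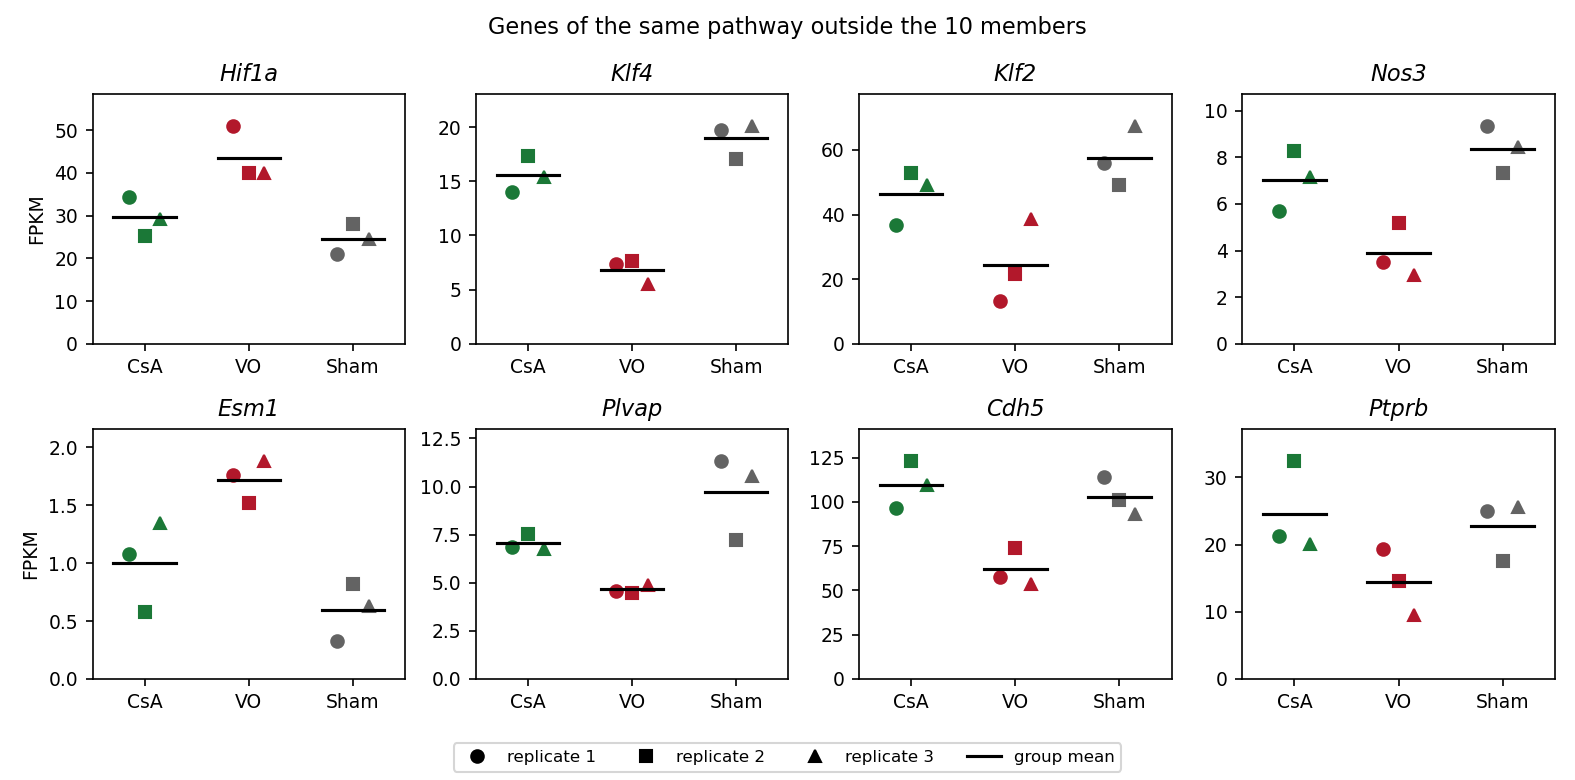
FPKM (y axis, from 0) of 8 genes outside the members in each library, with CsA left, VO in the middle and Sham right. Points are libraries, shapes the replicate number and lines the group means. Ptprb is from the co-receptor list and Hif1a from oxygen sensing. Klf4, Klf2, Nos3 and Esm1 are from receptor signalling, and Plvap and Cdh5 are endothelial markers. Hif1a and Esm1 are highest, and Klf4, Nos3, Plvap and Cdh5 lowest, in the 3 VO libraries.

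Marker lists of vessel and other cells were counted in VO against Sham, where 4.76% of all genes passed. Of 20 endothelial markers, Plvap, a protein of fenestrated and venous endothelium, fell by 0.90 on the log2 scale (SE 0.164, limma adjusted p = 0.0382) and 19 did not pass (7 above 0, 13 below, median -0.37). Cdh5, the endothelial cadherin, stood at -0.73 ± 0.183 (limma adjusted p = 0.0511), Eng at -0.77 ± 0.216 and Sox18 at -0.94 ± 0.281. Of 12 pericyte and smooth muscle markers 11 were tested, and Myh11, the smooth muscle myosin, fell by 0.98 (limma adjusted p = 0.0427), with 10 of 11 below 0 and a median of -0.53. Of 8 fibroblast markers the proteoglycan Lum rose by 0.85 (limma adjusted p = 0.0482), with 6 above 0 and a median of 0.30. Ventricular cardiomyocyte markers had 8 of 10 below 0 (median -0.44) and atrial markers 6 of 6 (median -2.90), with 0 past the test in either list. The atrial sum ran from 6.12 to 162 FPKM in CsA, 14.8 to 25.4 FPKM in VO and 8.21 to 621.8 FPKM in Sham. Plvap passed in 9 of 20 settings, 4 of the 9 that leave out 1 library among them, and stood at -0.45 after the GC correction. Myh11 passed in 8 of 20 and Lum in 6, and all 3 calls were lost without CsA 1, CsA 3, VO 1, Sham 1 or Sham 3. After the GC correction Myh11 stood at -0.84 and Lum at 0.57. The part of these cell types in the differences of the members was not tested.

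In CsA against VO the same lists had medians of 0.30 for endothelial, 0.40 for pericyte and smooth muscle, -0.13 for fibroblast, 0.27 for ventricular and 1.04 for atrial markers, and 0 genes passed in any. For the co-receptor list the median was 0.25 with 5 of 5 above 0, for receptor signalling 0.20 and for oxygen sensing 0.05.

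The steadiness of the differences in VO against Sham varied between members. Over 20 alternative settings Tie1 lay between -0.97 and -0.52 and passed in 7, Flt1 lay between -0.67 and -0.39 and passed in 0, and Vegfb lay between -1.10 and -0.31 and passed in 2. All 3 were below 0 in each of the 20 settings.

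**Figure D5:**
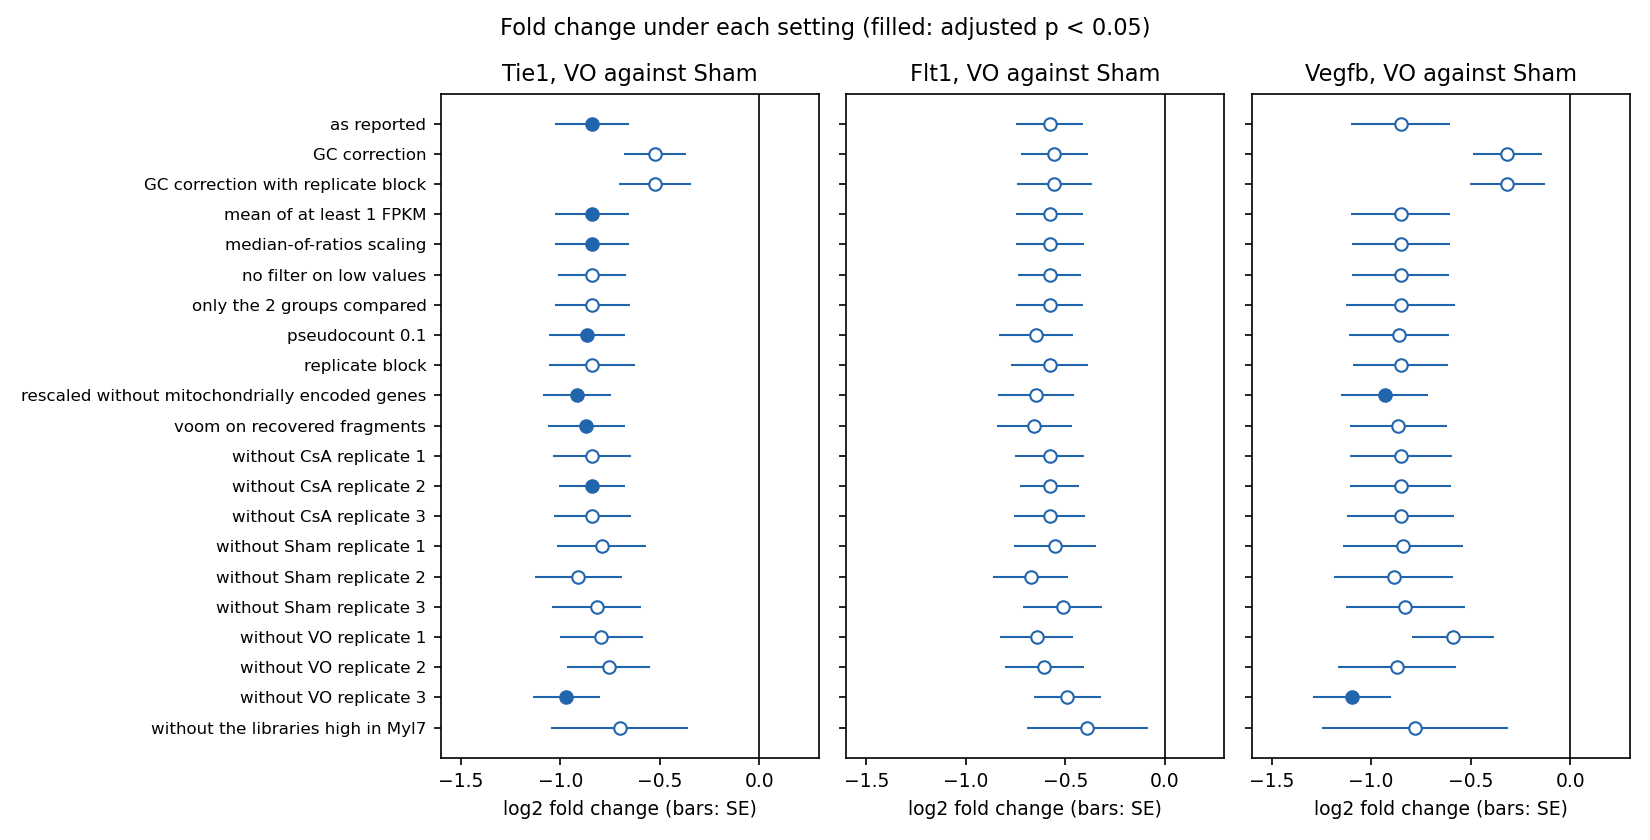
Log2 fold change in VO against Sham (x axis, bars are SE) of Tie1, Flt1 and Vegfb as reported and under each of 20 alternative settings (rows), with filled circles where the adjusted p is under 0.05. All estimates lie left of 0, and the GC correction moves Vegfb to -0.31 and Tie1 to -0.52 but leaves Flt1 at -0.55.

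For members with a mean of at least 5 FPKM, the profile over the 9 libraries was set against those of 9049 other protein-coding genes that averaged 2 FPKM or more. Likeness was the root mean square difference of mean-centred log2(FPKM + 1) values. The nearest to Tie1 were Eef2 (0.0529), Pygm (0.0795) and Nipal3 (0.0808), against a root mean square of 0.399 for Tie1 itself. The nearest to Vegfb were Map7d1 (0.058), Ndufb11 (0.0696) and Gstm2 (0.0756), against 0.443. For Flt1 they were Zer1, Stim1 and Selenoo (0.0921 to 0.0938, against 0.328), for Tek Mut, Idh1 and Xpc (0.082 to 0.0905, against 0.207), and for Kdr Rhoa, Rint1 and Pbx3 (0.0489 to 0.0499, against 0.13). For Vegfa they were Syde2, Msantd2 and Ammecr1 (0.0629 to 0.0779, against 0.262), for Angpt1 Cep85l, Tecrl and Raph1 (0.0843 to 0.0974, against 0.349), and for Vegfc Dusp10, Apobec1 and Manbal (0.134 to 0.148, against 0.244).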

How the data were processed

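The authors deposited 1 table of FPKM per gene and library, with gene length and GRCm38 coordinates. Per the submitters' processing notes, reads were handled with featureCounts 1.5.0-p3, HISAT2 2.0.5 and StringTie 1.3.3b among other tools (GATK 3.7, DESeq2 1.20.0), with no role given for any. Strand setting and annotation release are not given in the sources used here. FPKM times the length the deposited table gives was a whole multiple of 1 fragment's worth, within 0.1, for 100% of values up to 1000 fragments, which gave the depths. No replicate pair agreed within sampling noise (chi-square per degree of freedom at least 12.4).

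All 9 libraries entered 1 fit of log2(FPKM + 1) (limma 3.58.1 in R 4.3.3, variances moderated along the mean, two-sided) over genes averaging 0.5 FPKM or more, adjusted with Benjamini-Hochberg over all 13477 at a threshold of 0.05. A fold change on this scale understates that of low genes. Ratios used FPKM with no pseudocount. GC content came from the longest GENCODE M21 transcript, with a loess trend (span 0.3, degree 1) removed per library. Promoters came from RefSeq. Steps were tested on simulated data. Named genes were the members, up to 4 of each described list by smallest p and any past the test, and the 3 genes nearest in profile. Ccl21a has more than 1 row and was left out of the lymphatic list. Members and lists were chosen with earlier results of these data known. Python 3.11.15 and matplotlib 3.10.9 drew the plots.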

Additional observations from a re-analysis of the deposited data

How the results depend on the processing

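The count of members called in VO against Sham, 1 as reported, was 0 with no filter, only the 2 groups compared, the replicate block (the replicate number as a block), the GC correction with or without that block, or the libraries high in Myl7 left out, and 2 after rescaling without mitochondrially encoded genes. Over all genes the count of 642 became 0 with no filter, only the 2 groups, or the GC correction with or without the replicate block, 1 with the replicate block alone and 3 without the libraries high in Myl7. It was 753 after the rescaling, 212 higher and 541 lower, against 275 and 367 as reported. Leaving out 1 library gave 0 (without CsA 1, CsA 3, Sham 3 or VO 1) to 2074 genes (without VO 3) and 0 to 2 members. In CsA against VO, with 0 as reported, it gave 0 to 1, and in CsA against Sham 0 to 3, with 2 without the libraries high in Myl7. Without the libraries high in Myl7 the 1 Sham library left was Sham 2, the library with Ddx3y. No pairing by replicate number was seen. Across groups, same-numbered libraries correlated from -0.40 to 0.24 in their deviations from group means, and the rest from -0.19 to 0.27. Fewer libraries were fitted where some were left out, and the cause of these changes was not tested.

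Most sign changes were of values near 0. In VO against Sham, Pgf was at -0.00209 after the rescaling and between -0.15 and 0.19 leaving out 1 library, Angpt1 between -0.36 and 0.22 and 0.30 without the libraries high in Myl7, Vegfd between -0.12 and 0.00688, and Nrp2 between -0.00467 and 0.28 and -0.12 without those libraries. In CsA against VO, Kdr was at 0.11 after the rescaling, 0.00606 with the GC correction, alone or with the replicate block, and between -0.0759 and 0.0967 leaving out 1 library. Angpt1 ran from -0.24 to 0.34 and Nrp2 from -0.12 to 0.31, and Nrp2 was at -0.12 without the libraries high in Myl7. In CsA against Sham, Pgf was at 0.0165 with either GC correction and 0.25 without the libraries high in Myl7, Angpt1 at 0.00921 after the rescaling and 0.50 without those libraries, Tek at -0.0324 with either GC correction and Tie1 at 0.0236 without those libraries. Leaving out 1 library there gave -0.29 to 0.0537 for Pgf, -0.20 to 0.14 for Angpt1, -0.0684 to 0.16 for Angpt2, -0.0900 to 0.13 for Flt1 and -0.12 to 0.10 for Tek.

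Of the ratios and receptor levels, leaving out 1 library gave -0.11 to 0.21 for Tek over the endothelial markers in VO against Sham and -0.15 to 0.16 in CsA against VO (0.0286 without the libraries high in Myl7). For the 4 receptors it gave -0.22 to 0.10 and -0.0569 to 0.27. In CsA against Sham it gave -0.28 to 0.46 for Angpt2 to Angpt1, -0.36 to 0.0625 for Flt1 to Kdr, -0.0549 to 0.38 for Vegfa to Vegfb and -0.28 to 0.43 for Pgf to Vegfb. Without the libraries high in Myl7 the first 3 were -0.56, 0.28 and -0.0812 and Kdr over the markers was -0.0877. Depth limits Pgf and Angpt2 most, at 19 to 59 and 50 to 100 fragments.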

Other observations

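Markers of other cells that carry these receptors or meet the vessels did not pass the limma test in VO against Sham, with 0 called in each list. Of 8 macrophage markers 6 were below 0, with a median of -0.36, and their sum ran from 123 to 166 FPKM in CsA, 82.9 to 171 FPKM in VO and 141 to 167 FPKM in Sham. Of 5 lymphatic endothelial markers 4 were below 0, with a median of -0.02, while in CsA against VO 5 of 5 were above 0, with a median of 0.12. The 5 erythroid genes summed to 666.4 to 1039 FPKM in CsA, 591.4 to 2038 FPKM in VO and 709.9 to 894.8 FPKM in Sham, with the highest sum in VO 3.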
